A study of Mus musculus with 13 samples.

Results

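Dividing suprabasal keratinocytes are cells of the upper epidermis that carry the transcripts of the cell cycle. They were chosen by their own keratin, cycle and stress transcripts, in 13 single-cell RNA-seq libraries of mouse back skin, where 964 of the 86507 cells that passed quality limits met the rule and are called members. Cells were kept with 600 to 4800 detected genes in the embryo or 900 to 7700 at birth and with at most 10% of their transcripts from mitochondrial genes. A member held Krt1 plus Krt10, the keratins of the suprabasal layers, at 100 or more transcript counts (unique molecular identifiers, UMIs) per 10000 and above Krt5 plus Krt14, the keratins of the basal layer. It also held at least 2 of the 6 cycle transcripts Mki67, Top2a, Ube2c, Cdk1, Ccnb1 and Rrm2, with Krt6a plus Sprr2a3, which mark stressed keratinocytes, under 5 per 10000. Suprabasal cells with at most 1 cycle transcript (3341 cells) and dividing basal cells with 2 or more (5060 cells) served for comparison. The basal class was set by Krt5 plus Krt14 at 20 or more per 10000 before birth and 100 or more at birth, limits chosen after the values were seen, and it also takes in dividing cells of the hair placodes and follicles.

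The libraries came from wild-type (WT) C57BL/6 mice and from littermates labelled Grhl3-/-, which lack the transcription factor Grainyhead-like 3 in every tissue and are born with spina bifida. Whole back skin was taken at 2 embryonic ages, E14.5 and E16.5 (embryonic days), and epidermis at birth (P0), away from the spinal defect, with 2 libraries for each age and genotype and the same chemistry in all 12. A further WT library of P0 epidermis was made with the first version of the droplet chemistry (v1) and entered no fit. The study asked how epidermal differentiation unfolds across these ages and what the loss of Grhl3 changes in it.

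Most cell division in mature epidermis takes place in the basal layer, and cells leaving it switch from Krt5 and Krt14 to Krt1 and Krt10 as they stop cycling. In the stratifying embryonic epidermis the first cells above the basal layer, called intermediate cells, still divide and mature into spinous cells, which then give rise to granular cells that build the cornified envelope. Division in that layer is known to add to the thickness of the embryonic epidermis before it becomes rare near birth.

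The 12 libraries of the fits held 12 to 146 members each, and the v1 library 150. The median member held 13355 to 21264 UMIs by library, against 7202 to 14260 in non-dividing suprabasal cells, so the number of cycle transcripts found in a cell also follows its depth. Of the suprabasal cells under the Krt6a and Sprr2a3 limit, 2095 had none of the 6 cycle transcripts, 1246 had 1, 463 had 2, 163 had 3, 108 had 4, 145 had 5 and 85 had all 6. The classes therefore met without a gap at the limit of 2. Members with Krt1 plus Krt10 between 100 and 120 per 10000 numbered 105, and 109 cells between 80 and 100 met every other limit. A further 168 cells met every limit but had at least as much Krt5 plus Krt14 as Krt1 plus Krt10.

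How far the label holds was read from the cycle transcripts per cell. The median member before birth carried 2 to 4 of the 6, and 2, the lowest number the rule admits, in E14.5 WT 2. At P0 the median was 2 in each of the 5 libraries. Granular cells, marked by high Lor (loricrin, the main protein of the cornified envelope), have left the cycle and show how often the rule is met without division. At P0, 7 of 34 Lor-high suprabasal cells held 2 or more cycle transcripts (20.6%, 95% exact interval 8.70% to 37.9%, median depth 23633 UMIs), against 320 of 1828 others (17.5%, 15.8% to 19.3%, 12038 UMIs). The limit on Krt6a and Sprr2a3 was applied to the others and not to Lor-high cells. With every cell thinned to 3000 UMIs these shares were 2.94% (1 of 34, interval 0.0744% to 15.3%) and 4.92% (3.98% to 6.02%). The P0 share was thus not distinguished from that of cells that should not divide, and the few Lor-high cells leave the interval wide. At E16.5 the shares were 20% (9 of 45, 9.58% to 34.6%) and 24.2% (21.4% to 27.2%) with all UMIs, and the thinned shares were 2.50% in Lor-high cells (1 of 40, interval 0.0633% to 13.2%) and 9.71% in the others (7.79% to 11.9%), which the first interval also covers. Cells with 4 or more cycle transcripts made up 9.47% of the others and were 0 of 40 among Lor-high cells, which allows a share of up to 7.50% by 3 counts of the total and 8.81% by the exact interval. At P0 they were 4.98% of the others and 2 of 34 Lor-high cells (5.88%, 0.72% to 19.7%). No Lor-high cell was found at E14.5, so the background could not be read there. All such intervals and limits cover counting error alone.

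A doublet caller marked 21.7% to 31.4% of members at P0, against 2.24% to 4.19% of the non-dividing suprabasal cells there. Before birth it marked 0% to 17.8% of members, the most in E16.5 WT. Members with more than 50 UMIs per 10000 from Col1a1, Col1a2 and Col3a1, the collagens of fibroblasts, were 9 and 10 in the E16.5 WT libraries and 0 in both E16.5 Grhl3-/- libraries. The number of barcodes common to any pair of libraries was at most 131, and no cell was a member in both libraries of a pair. Xist, the transcript of the inactive X chromosome, was at 0 and 684.5 CPM (UMIs scaled to a common library total) in E14.5 WT, at 0 and 0.433 in E14.5 Grhl3-/-, at 1160 and 879 in E16.5 WT, at 64.6 and 1281 in E16.5 Grhl3-/-, and at 0.419 or less in each P0 library. Sex therefore differed between some of the groups compared before birth and between E16.5 and P0, and its part in the results was not tested.

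The promoters of 4 cycle genes that hold both motifs below are shown, whose transcripts either chose the members (the mitotic kinase Cdk1, the topoisomerase Top2a and the chromosome surface protein Mki67) or stood higher in them than in non-dividing cells in every library (the chromatin protein Hmgb2). Each run is the 150 bases before the transcription start in RefSeq's GRCm38.p6 annotation, and capitals mark TTTGAA, the cell cycle homology element of late cycle genes, and CCAAT, the box bound by NF-Y, each on either strand. The windows lie on chr10:69352913-69353062 (minus strand, Cdk1), chr11:99024190-99024339 (minus, Top2a), chr7:135716380-135716529 (minus, Mki67) and chr8:57511693-57511842 (plus, Hmgb2).
Cdk1: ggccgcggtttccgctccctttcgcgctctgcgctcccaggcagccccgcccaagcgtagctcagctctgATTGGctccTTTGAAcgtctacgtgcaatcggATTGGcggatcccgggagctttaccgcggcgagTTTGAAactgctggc
Top2a: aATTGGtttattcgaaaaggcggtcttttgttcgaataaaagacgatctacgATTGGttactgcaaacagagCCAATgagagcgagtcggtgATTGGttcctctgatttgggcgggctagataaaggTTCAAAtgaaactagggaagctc
Mki67: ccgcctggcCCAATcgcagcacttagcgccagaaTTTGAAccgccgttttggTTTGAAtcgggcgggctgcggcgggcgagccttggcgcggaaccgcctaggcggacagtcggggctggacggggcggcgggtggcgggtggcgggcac
Hmgb2: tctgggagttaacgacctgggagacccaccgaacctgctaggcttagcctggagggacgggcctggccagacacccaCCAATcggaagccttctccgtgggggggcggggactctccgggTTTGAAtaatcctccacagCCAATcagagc
In the 250 bases before the start, TTTGAA was found in 17 of 49 promoters of a list of G2/M genes (34.7%), in 6 of 36 of a list of S phase genes (16.7%) and in 16% of all 32851 promoters of the same length. CCAAT was found in 73.5% of the G2/M promoters, 69.4% of the S phase promoters and 33.8% of all. Both motifs stood together in 28.6% of the G2/M promoters, against 5.55% of all, and in 4 of the 6 cycle genes of the rule, while the other two, Ccnb1 and Rrm2, held CCAAT and no TTTGAA. AACCNGTT, a form of the Grainyhead-like motif, was in 1 of 31 promoters of a granular list (3.23%) and in 1.79% of all. These matches are letters in a window and say nothing of binding.

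After thinning to a common depth, the share of dividing cells among suprabasal cells was highest at E14.5. In E14.5 WT, 48.1% and 37.6% of suprabasal cells were members, against 27.9% and 30.6% in E14.5 Grhl3-/-. The shares were 24.5% and 22.1% in E16.5 WT, 30.5% and 24% in E16.5 Grhl3-/-, 19.1% and 14.4% in P0 WT, 21.6% and 20.7% in P0 Grhl3-/- and 21.0% in the v1 library. With each cell thinned to 3000 UMIs the E14.5 shares were 23.8% and 15.5% in WT and 12.5% and 12.8% in Grhl3-/-, and all 4 lay above the 4 values of E16.5, which ran from 8.39% to 12.1%. The P0 values were 5.82% and 2.36% in WT, 5.94% and 10.98% in Grhl3-/- and 5.49% in the v1 library, and the second Grhl3-/- library alone lay within the E16.5 range. With doublet calls removed the thinned P0 shares fell to 3.40% and 0.845% in WT and 2.51% and 6.37% in Grhl3-/-, all 4 below the E16.5 values of 8.37% and 8.23% in WT and 12.6% and 13.04% in Grhl3-/-. The E14.5 values were then 24.1% and 15.7% in WT and 12.8% and 12.9% in Grhl3-/-, so that the E14.5 and E16.5 Grhl3-/- libraries overlapped.

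**Figure D1:**
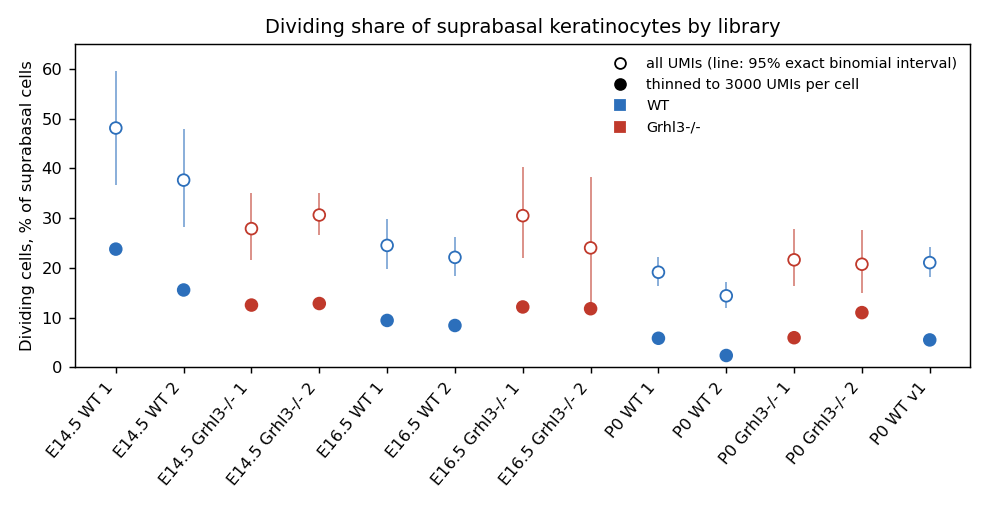
Members as a percentage of suprabasal keratinocytes in each of the 13 libraries, WT in blue and Grhl3-/- in red. Open points use all UMIs with their 95% exact binomial interval, and filled points use cells thinned to 3000 UMIs, where E14.5 WT stands highest at 23.8% and 15.5% and P0 WT 2 lowest at 2.36%.

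The thinned share was 10.4% ± 1.81 at E16.5 and 16.1% ± 5.25 at E14.5 (SD, n = 4 libraries of both genotypes), an odds ratio of 0.628 (exact permutation test, two-sided, p = 0.0286, the smallest that 4 against 4 can give). The test pooled the genotypes, and age cannot be told apart from litter. From E14.5 to E16.5 the mean share went from 19.6% to 8.90% in WT and from 12.7% to 11.9% in Grhl3-/-. The call did not hold without any 1 of E14.5 WT 1, E16.5 WT 1, E16.5 WT 2, E16.5 Grhl3-/- 1 or E16.5 Grhl3-/- 2 (log odds differences of -0.29, -0.43, -0.38, -0.53 and -0.53, exact permutation p = 0.143, 0.143, 0.143, 0.114 and 0.114), and with Krt1 plus Krt10 at 200 or more per 10000 the difference turned to 0.51 (p = 0.229, exact permutation test). The share was 6.28% ± 3.55 at P0 (SD, n = 4), an odds ratio of 0.503 against E16.5 (exact permutation test, two-sided, p = 0.0857), and age there cannot be told apart from the change of tissue from whole skin to epidermis. Without P0 Grhl3-/- 2 that log odds difference was -0.94 and its p the smallest possible, and with doublet calls removed it was -1.43 (exact permutation p = 0.0286). Grhl3-/- against WT, permuted within age over 12 libraries, gave an odds ratio of 1.26 (exact permutation test, two-sided, p = 0.417, smallest possible 0.00926), with the WT libraries higher at E14.5 and the Grhl3-/- libraries higher at E16.5 and P0. Suprabasal cells as a whole were at most 1.68% of the kept cells in E14.5 WT and 2.997% and 6.85% in E14.5 Grhl3-/-.

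Next to non-dividing suprabasal cells, members differed mainly in cycle genes. Because the cycle limit made this split, the differences are a description with no test. Smc4, a condensin subunit that compacts chromosomes, was at a median of 142 CPM in members and 30.1 in non-dividing cells, a median log2 difference of 2.43 over the 13 libraries. Hmgb2 was at 800.2 and 195 CPM (median log2 difference 2.04) and H2afx, the histone variant of DNA damage signalling, at 222 and 63.6 (2.00). Cks1b and Cks2, the small subunits of cyclin-dependent kinases, differed by 1.85 and 1.77, and the tubulins Tubb5 and Tuba1b by 1.72 and 1.18. Each of these was higher in 13 of 13 libraries, and so was Gpsm2, the LGN adaptor that orients the mitotic spindle (median log2 difference 0.95, range 0.44 to 2.47). Gpsm2 is a less abundant gene, named after its values were seen. Of the 6 spindle orientation genes with enough counts 2 had a median above 0 (median over the list -0.11, against -0.14 over all genes read).

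The same comparison showed lower spinous transcripts in members. All 18 spinous genes with enough counts had a median below 0 (median over the list -0.44, against -0.14 over all genes read). The lowest of the list was Krt77 (-0.86, lower in 11 of 13 libraries). Outside the list Ly6g6c, a surface protein of differentiating keratinocytes, was at -0.88 (lower in 11 of 13), Clic3 at -0.86 (12 of 13) and Tmem45a at -0.69 (13 of 13). Dsg1a, the desmoglein of suprabasal desmosomes, was at -0.47 and Them5, a thioesterase, at -0.50, both lower in every library.

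Against dividing basal cells, members held higher spinous transcripts. Them5 was at a median of 454 CPM in members and 11.02 in dividing basal cells (median log2 difference 4.83), Ly6d at 4522 and 279 (4.32), Lgals3 at 1652 and 204 (3.53) and Sbsn, a secreted suprabasal protein, at 667 and 54.8 (3.49), all higher in 13 of 13 libraries. All 11 spinous genes with enough counts had a median above 0 (median over the list 2.26, against -0.02 over all genes). Lower in all 13 libraries were Cxcl14, a chemokine (77.2 and 1592 CPM, -4.25), Pdgfa, a growth factor for the dermis (-3.17), Wnt6 (-3.01) and Sox4 (-2.20). Keratin sums define both classes, so these values too are a description.

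Regulators of cell cycle entry also differed between members and dividing basal cells. At P0 the share of members was not distinguished from that of Lor-high cells, so the values there need not describe dividing cells. Ccnd2, a D-type cyclin that drives entry into S phase, was at 72.9 CPM in members and 770.3 in dividing basal cells (median log2 difference -2.90, lower in 13 of 13). Cdkn1a, the p21 inhibitor of cyclin-dependent kinases, was higher by 2.45 in 13 of 13 libraries and Ccnd1 lower by 1.32 in 13 of 13. All 9 S phase genes read were lower (median -0.77), and 19 of 21 G2/M genes (median -0.66) in the median over libraries. At E14.5 the G2/M list was not lower throughout: it summed to 7463, 6058, 6317 and 6541 CPM in members of the 2 WT and 2 Grhl3-/- libraries and to 6438, 6285, 6066 and 6968 in their dividing basal cells. Notch signalling drives basal cells into the suprabasal fate, and 3 of its 30 listed genes had enough counts here. They were the target Nrarp (1.94, higher in 13 of 13), the target Hes1 (1.09, higher in 12 of 13) and the receptor Notch1 (-0.0025, higher in 6 of 13). Among less abundant genes, named after their values were seen, the receptor Notch3 was higher in members (2.59, 13 of 13 libraries) and the ligands Dll1 and Jag2 and the receptor-modifying enzyme Lfng were lower (-3.91, -2.86 and -3.38, 13 of 13 each).

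**Figure D2:**
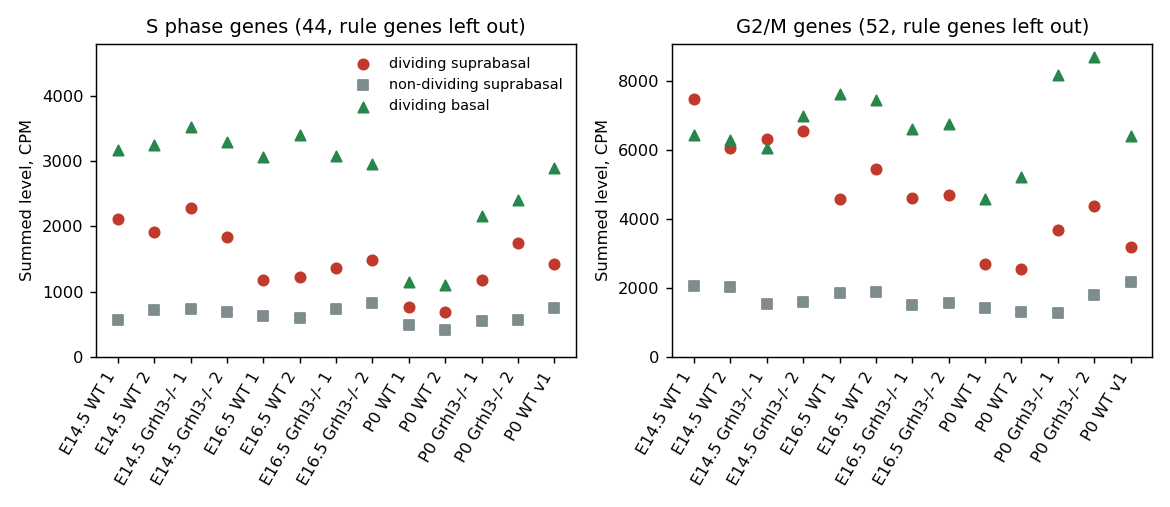
Summed level in CPM of 44 S phase genes (left) and 52 G2/M genes (right), with the cycle genes of the rule left out, for members (red circles), non-dividing suprabasal cells (grey squares) and dividing basal cells (green triangles) in each library. For S phase genes members lie between the other classes in all 13 libraries, and in P0 WT they stand at 758 and 680 CPM, between 480 and 414 in non-dividing and 1152 and 1095 in dividing basal cells.

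Grhl3 itself was read in the members of every library, with 6 to 115 UMIs. It was at 60.1 and 62.6 CPM in E14.5 WT and 53.9 and 49.8 in E14.5 Grhl3-/-, at 26.4 and 31.2 in E16.5 WT and 22.05 and 23.01 in E16.5 Grhl3-/-, and at 21.0 and 22.7 in P0 WT and 8.74 and 22.6 in P0 Grhl3-/-. The differences between genotypes were -0.28 ± 0.24, -0.33 ± 0.35 and -0.54 ± 0.35 on the log2 scale (SE), none past the threshold (edgeR adjusted p = 0.739, 0.827 and 0.308). The gene lies on chr4:135541888-135573630 (GRCm38.p6, minus strand), and which part of it the mutant allele lacks is not given in the sources used here, so these 3′ reads do not check the labels. Grhl3-/- below therefore means the libraries so labelled. In non-dividing suprabasal cells Grhl3 was at 104 and 135 CPM in E14.5 WT against 55.1 and 66.7 in E14.5 Grhl3-/-. In WT members it fell from E14.5 to E16.5 (-1.07 ± 0.26, adjusted p = 0.0161), a call that did not hold with DESeq2 or without any 1 of the 4 libraries. Grhl1, a paralogue that acts on desmosomal genes, was at 124 and 123 CPM in P0 WT and 59.0 and 56.5 in P0 Grhl3-/- (-1.002 ± 0.18, adjusted p = 0.00126). It was at 62.5 in the v1 WT library. Grhl2 was at 20.4 and 22.6 in P0 WT and 26.2 and 26.4 in P0 Grhl3-/- (0.37 ± 0.31, adjusted p = 0.452).

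Between E14.5 and E16.5, genes of the granular layer and cornified envelope, several of them at 0 at E14.5, rose in WT members. Of 8161 genes tested, 503 rose (6.16%) and 287 fell (3.52%; edgeR, Benjamini-Hochberg adjusted p under 0.05, 9.68% in all). Age cannot be told apart from litter here. The median Krt1 plus Krt10 per 10000 was 139 and 128 in E14.5 WT members and 397 and 427 in E16.5 WT members. In E14.5 WT 4 of 38 and 1 of 38 members reached 200, and in E16.5 WT 61 of 73 and 91 of 97. The part of this difference in the changes was not tested. Of the granular and cornified envelope list, 24 of 32 genes passed the filter on low counts, which most did through E16.5 or P0 so that few could have fallen, and 15 rose and 0 fell (median log2 change 6.09, or 3.31 with the 8 genes at 0 in both E14.5 libraries set at a floor of 3 counts, against 0.015 over all genes). Alox12b, a lipoxygenase of the barrier lipids, was at 0 and 0 CPM in E14.5 WT and 96.9 and 109 in E16.5 WT, at least 43.6-fold higher with the E14.5 pair set at 3 counts (adjusted p = 0.000127). Nccrp1, an F-box protein, was at 0 and 0 and at 107 and 126 (at least 49.5-fold, edgeR adjusted p = 0.00346). Lce1m and Crct1, proteins of the late envelope, went from 0 in both libraries to 397 and 603 and to 401 and 567 CPM (at least 218-fold and at least 209.7-fold). Flg, the precursor of filaggrin, was at 222 and 13.3 CPM at E16.5 and thus uneven between libraries. With 3 or more cycle transcripts required the calls of Nccrp1, Crct1 and Flg were lost (edgeR adjusted p = 0.551, 0.130 and 0.109). That of Lce1m was lost with DESeq2 (adjusted p = 0.275). With members limited to 3 or more cycle transcripts 5 granular genes rose and 1 fell, and without E14.5 WT 1 or E14.5 WT 2, 6 and 5 rose.

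Spinous genes rose alongside. Of 26 tested, 12 rose and 2 fell, and 6 to 9 rose when 1 library was left out, fewest without E14.5 WT 2 and E16.5 WT 1. Cnfn, cornifelin, went from 4.19 and 1.42 CPM to 374.5 and 309 (log2 change 6.87 ± 0.75, adjusted p = 3.93e-05), Ptgs1, a cyclooxygenase, from 6.98 and 2.85 to 132 and 124 (4.67 ± 0.36) and Dsg1a from 76.8 and 68.3 to 258 and 250 (1.81 ± 0.21). The E16.5 libraries lay above both E14.5 libraries in each case. The Cnfn call was lost with 3 or more cycle transcripts required (edgeR adjusted p = 0.0766). Basal genes rose too, 7 of 19 tested with none lower, and 3 without E14.5 WT 2. Krt15, a basal keratin, went from 155 and 99.6 to 2685 and 2245 CPM (4.28 ± 0.30, adjusted p = 3.24e-07) and Col7a1, the anchoring fibril collagen, from 0 and 1.42 to 25.6 and 24.3 (4.95 ± 0.68).

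Fewer genes fell, and among them were cycle genes. Of 42 S phase genes tested 9 fell and 0 rose (median -0.73), with Prim1, a primase subunit, going from 83.8 and 56.9 to 24.7 and 25.4 (-1.48 ± 0.27). Of 51 G2/M genes 8 fell and 0 rose (median -0.34), led by Kif20b, a mitotic kinesin, and Ndc80, of the kinetochore (-1.41 ± 0.37 and -1.34 ± 0.33), both lost with DESeq2 (adjusted p = 0.0972 and 0.126) and Kif20b also with doublet calls removed. Members with 4 or more cycle transcripts were 52.6% and 39.5% in E14.5 WT and 31.5% and 39.2% in E16.5 WT, whose part in these falls was not tested. Leaving out 1 library left 2 to 4 S phase genes and 0 to 4 G2/M genes lower, fewest without E16.5 WT 1 and E14.5 WT 1. Ccne1, the cyclin of S phase entry, fell (-1.50 ± 0.35, adjusted p = 0.0121) and Cdkn1a rose from 148 and 138 to 397 and 322 CPM (1.33 ± 0.24, adjusted p = 0.00236). Hes1, a Notch target, fell from 261 and 303 to 102 and 100 CPM (-1.47 ± 0.31) and the ligand Jag1 from 67.0 and 68.3 to 28.2 and 24.9 (-1.35 ± 0.27). They were the 2 called of 17 Notch genes tested, near the share over all genes. The lowest adjusted p among the falls named by size belonged to Mgst1, a glutathione transferase of membranes, at 1147 and 1328 CPM in E14.5 WT and 93.4 and 102 in E16.5 WT (-3.65 ± 0.17, adjusted p = 3.62e-09). Fez1 fell from 151 and 111 to 8.81 and 9.25 (-3.83 ± 0.30).

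Transcripts of the dermis and blood moved with this comparison. Of 6 blood genes tested 2 were higher and 1 was lower at E16.5. Of 15 dermal genes tested 10 were higher at E16.5, and their list summed to 931 and 882 CPM in E14.5 WT and 4083 and 2997 in E16.5 WT. Without members over the collagen limit 5 dermal genes were higher, 15 granular, 13 spinous and 7 basal genes rose, and 4 named calls of this comparison were lost. The part of dermal RNA in the result was not tested. With doublet calls removed, which marked 17.8% and 14.4% of members in E16.5 WT and 2.63% in each E14.5 WT library, 14 granular, 12 spinous and 6 basal genes rose and 11 named calls were lost, among them Itga6, Cdh3 and Lce1m (edgeR adjusted p = 0.0832, 0.0522 and 0.123). Of 20 genes of dissociation stress 4 fell, among them Fos and Atf3 (-0.78 ± 0.16 and -1.501 ± 0.34), and 1, Socs3, rose, and the list summed to 6251 and 6896 CPM in E14.5 WT and 4900 and 4719 in E16.5 WT, whose part in the result was not tested. Counts of all calls fell to 317, 268, 352 and 397 without E14.5 WT 1, E14.5 WT 2, E16.5 WT 1 and E16.5 WT 2 in turn, where the lone library was taken to vary like the other groups, and DESeq2 called 451.

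**Figure D3:**
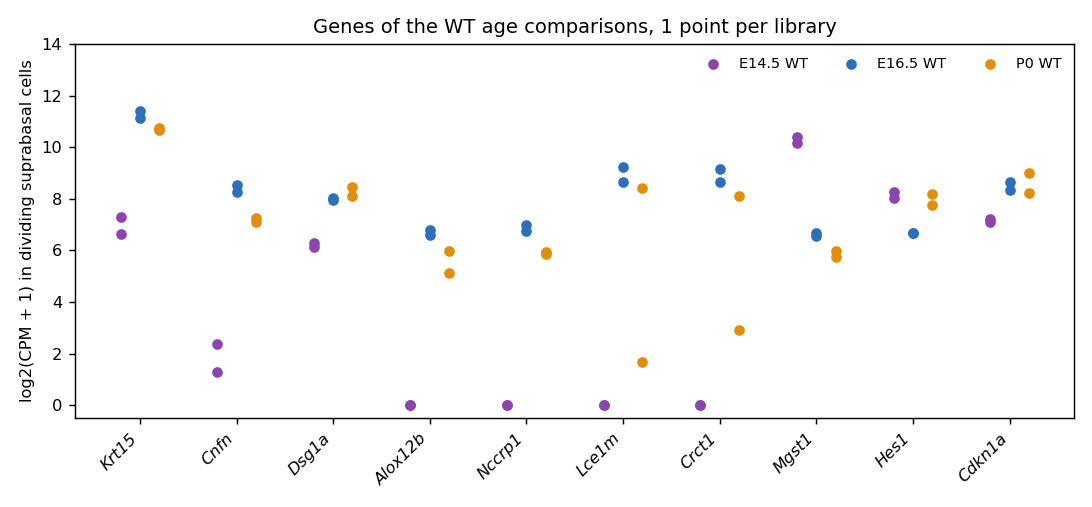
Level of 10 genes in WT members on the log2(CPM + 1) scale, with 1 point for each library (E14.5 purple, E16.5 blue, P0 orange). Alox12b, Nccrp1, Lce1m and Crct1 sit at 0 in both E14.5 libraries and between 96.9 and 603 CPM at E16.5, and in P0 the pairs of points for Lce1m and Crct1 lie far apart.

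From E16.5 to P0, 1797 genes were higher (22%) and 1725 lower (21.1%) in WT members (43.2% of 8161 in all), while the tissue changed from whole skin to epidermis. All 15 dermal genes tested and 5 of 6 blood genes fell and all 4 melanocyte genes rose, with Dct, a pigment enzyme, going from 0 and 1.16 to 638 and 367 CPM. These 4 were the ones of 9 listed melanocyte genes that passed the filter on low counts, and those near 0 at E16.5 could hardly have fallen. Of macrophage and Langerhans genes 5 of 7 were higher (summed level 88.1 and 53.2 CPM at E16.5, 118 and 293 at P0), and of hair follicle genes 7 of 9 (305 and 223, then 719 and 1213). These 7 and 9 were the ones of 15 and 18 listed genes that passed the filter. Here too those near 0 at E16.5 could hardly have fallen. The part of these cells' RNA in the result was not tested. Of the cycle genes, 26 of 51 G2/M genes fell with none higher (median -0.76), and 14 of 42 S phase genes fell and 1 rose (median -0.63). Cks2 went from 276 and 317 to 77.4 and 91.4 CPM (-1.79 ± 0.16, adjusted p = 1.25e-06), Ccna2, the cyclin of S and G2 phases, from 82.0 and 111 to 31.2 and 25.6 (-1.77 ± 0.21) and Tyms, which makes thymidylate, from 60.8 and 64.8 to 17.7 and 13 (-2.03 ± 0.24). With doublet calls removed 35 G2/M genes fell. Members with 4 or more cycle transcripts were 31.5% and 39.2% in E16.5 WT and 22.8% and 30.9% in P0 WT, whose part in these falls was not tested. The v1 WT members, outside the fit, summed to 1416 CPM of S phase genes, above E16.5 WT at 1184 and 1219, and to 3185 CPM of G2/M genes, below E16.5 WT at 4574 and 5447.

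Of 24 cyclins and cell cycle inhibitors tested, 4 rose and 9 fell. Cdkn1c, the p57 inhibitor, fell from 295 and 197 to 6.99 and 4.19 CPM (-5.44 ± 0.42, adjusted p = 3.4e-07), Ccne1 from 15.9 and 25.4 to 2.15 and 1.26 (-3.59 ± 0.53) and Ccnd1 rose from 18.5 and 23.7 to 77.4 and 78.9 (1.88 ± 0.28). Basal genes again rose, 14 of 19 with 1 lower, among them Dst, a linker of hemidesmosomes (23.8 and 35.9 to 322 and 379 CPM, 3.53 ± 0.22). Desmosome and junction genes rose in 12 of 28 and fell in 2, where 4 rose without E16.5 WT 2. Of the granular list 6 rose and 4 fell, where 16 rose and 0 fell with 3 or more cycle transcripts required. Flg went from 222 and 13.3 to 3468 and 2110 CPM (4.65 ± 0.97, edgeR adjusted p = 0.00155), a call lost with DESeq2 (adjusted p = 0.0894). The spindle orientation genes Celsr1, Prkci and Numa1 rose by 1.498, 1.301 and 1.08 on the log2 scale, among 8 higher and 3 lower of 21. The shares of the cyclin, junction, granular and spindle lists called in either direction lay near the 43.2% over all genes. Without E16.5 WT 2, 1970 genes were called, and DESeq2 called 2075.

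At E14.5 the Grhl3-/- members held lower levels of several spinous genes than WT members and more Krt15. Of 8161 genes 34 were higher (0.417%) and 66 lower (0.809%; 1.23% in all), against the same WT libraries as in the comparison of ages. Of 26 spinous genes 8 were lower and 1 was higher (median -0.84, against 0.024 over all genes), and 2 to 5 were lower when 1 library was left out, fewest without Grhl3-/- 2. Endou, an endonuclease of the spinous layer, was at 202.5 and 172 CPM in WT and 26.95 and 16.01 in Grhl3-/- (-3.28 ± 0.43, adjusted p = 0.000782), Elovl4, which makes the very long fatty acids of the barrier, at 342 and 441 against 122 and 152 (-1.52 ± 0.21, adjusted p = 0.00124), and Lgals3 at 635 and 667 against 264 and 291 (-1.25 ± 0.16). Of the granular list Tgm3 and Tgm1, the transglutaminases that cross-link the envelope, and the lipid transporter Abca12 were lower (-2.36 ± 0.39, -1.39 ± 0.28 and -1.84 ± 0.42), the only 3 called of 24. Without E14.5 WT 1 or either Grhl3-/- library none of these 3 was called.

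The fall with the largest log2 change among the named genes was that of Rdh12, a retinol dehydrogenase, at 109 and 105 CPM in WT and 1.28 and 7.36 in Grhl3-/- (-4.24 ± 0.39, adjusted p = 3.51e-05). Gsta1 and Gsta2, glutathione transferases, and Acsl1, which activates fatty acids, were also lower (-3.77 ± 0.54, -3.03 ± 0.43 and -2.59 ± 0.27). The junction genes Cldn1 and Perp were lower (-1.39 ± 0.27 and -0.69 ± 0.13) and Cldn3 was at 20.5 and 21.6 CPM in Grhl3-/- and 0 in both WT libraries (at least 9.77-fold higher, adjusted p = 0.0253). Krt15 was at 1195 and 1397 CPM in Grhl3-/- and 155 and 99.6 in WT (3.32 ± 0.29, adjusted p = 2.89e-05). Stfa3, a stefin, was at 896 and 1021 against 191 and 76.9 (2.81 ± 0.32), and Pou3f1 at 12.8 and 29.9 against 1.397 and 1.42 (3.97 ± 0.81). None of 42 S phase and 51 G2/M genes was called (medians -0.0070 and 0.033). Counts of all calls were 51, 37, 37 and 19 without WT 1, WT 2, Grhl3-/- 1 and Grhl3-/- 2 in turn, 61 with doublet calls removed and 284 with the 4 libraries fitted alone.

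At E16.5 the Grhl3-/- libraries held 32 and 12 members and gave 13 genes higher (0.159%) and 42 lower (0.515%; 0.674% of 8161 in all). The median Krt5 plus Krt14 per 10000 was 115 and 69.2 in these members and 17.0 and 36.1 in WT members, whose part in the results was not tested. Stress keratins and small proline-rich genes made up 7 of the 13 that were higher, of 10 tested with none lower (median 4.13; 1 without WT 1 or WT 2, 4 without Grhl3-/- 1 or Grhl3-/- 2), although the rule had capped Krt6a and Sprr2a3 in every cell. Krt16, a keratin of wounded epidermis, was at 329 and 894 CPM in Grhl3-/- and 51.1 and 60.7 in WT (3.46 ± 0.68, adjusted p = 0.0225). That call was lost with DESeq2 (adjusted p = 0.191), with 3 or more cycle transcripts required, with Krt1 plus Krt10 at 200 or more, and without any 1 of WT 1, WT 2 or Grhl3-/- 2. Sprr1b, a small proline-rich envelope protein, was at 263 and 491 against 62.6 and 54.4 (2.71 ± 0.32, adjusted p = 0.000414). The Sprr1b call was lost with 3 or more cycle transcripts required (2.38, edgeR adjusted p = 0.0632). Of the 24 listed stress genes 10 passed the filter on low counts, which was read over all 12 libraries. Those near 0 in E16.5 WT could thus have been called higher but hardly lower. S100a8 and S100a9, alarmins of inflamed epidermis, and Stfa1 were high in the first Grhl3-/- library alone: S100a8 was at 576 and 11.5 CPM against 0.881 and 1.16 (8.20 ± 1.24), and without that library all 3 calls were lost. Hrnr, an S100 fused protein of the envelope, was lower (148 and 7.67 against 694 and 534 CPM, -2.62 ± 0.45), as were Asprv1, a protease of filaggrin (490 and 337.5 against 1494 and 1766, -1.90 ± 0.30), and Calml3 (33.1 and 0 against 194 and 104, -2.64 ± 0.46). All 3 calls were lost with 3 or more cycle transcripts required and without WT 1, those of Hrnr and Calml3 with doublet calls removed, and that of Hrnr with DESeq2 (adjusted p = 0.909).

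Of 15 dermal genes 7 were lower in the E16.5 Grhl3-/- members, with Col1a1 at 139 and 157 CPM against 851 and 618 in WT (-2.27 ± 0.21, adjusted p = 0.000204). The dermal list summed to 1071 and 1012 against 4083 and 2997 CPM and the blood list to 7612 and 2432 against 15207 and 14164. Without members over the collagen limit, an alternative chosen after the data were seen, none of 12 dermal genes tested was lower and 8 stress genes were higher. Counts of all calls were 11, 25 and 23 without WT 1, WT 2 and Grhl3-/- 2, and 20 to 22 under stricter keratin or cycle limits or with doublet calls removed.

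At P0 Grhl3-/- members held more S phase transcripts and fewer envelope, spinous and junction transcripts than WT members. They also held more basal keratin. The median Krt5 plus Krt14 per 10000 was 45.9 and 16.6 in Grhl3-/- members and 6.70 and 3.34 in WT members. It was 48.1 in the members of the v1 WT library. The part of this difference in the results was not tested. Of 8161 genes 785 were higher (9.62%) and 637 lower (7.81%; 17.4% in all), with 922 and 744 called without Grhl3-/- 1 and Grhl3-/- 2. Of 42 S phase genes 22 were higher and 0 lower (median 1.05, against 0.051 over all genes) and of 51 G2/M genes 16 were higher and 1, the spindle checkpoint kinase Ttk, lower (median 0.50). Members with 4 or more cycle transcripts were 22.8% and 30.9% in P0 WT and 32.6% and 37.1% in P0 Grhl3-/-. The part of these shares in the cycle lists was not tested. With 3 or more cycle transcripts required 715 genes were called in all. Dtl, which targets replication proteins for degradation, was at 51.3 and 105.5 CPM in Grhl3-/- and 17.2 and 18.5 in WT (2.14 ± 0.38, adjusted p = 0.00154), Tyms at 64.4 and 52.7 against 17.7 and 13 (2.05 ± 0.27, adjusted p = 0.0002) and Cks2 at 218 and 194 against 77.4 and 91.4 (1.38 ± 0.17, adjusted p = 0.00011). 2810417H13Rik, the PCNA-associated factor, was at 188 and 264 against 41.9 and 39.0 (2.55 ± 0.22, adjusted p = 1.23e-05). Cdk4, the kinase of D-type cyclins, rose by 1.10 ± 0.18 and E2f2 by 1.79 ± 0.42, while Myc fell by 1.296 ± 0.33 on the log2 scale. The E2f2 call was lost with Krt1 plus Krt10 at 200 or more and that of Myc with 3 or more cycle transcripts required (edgeR adjusted p = 0.0943 and 0.0523). Of 24 cyclins and cell cycle inhibitors tested 4 were higher and 3 lower.

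The v1 WT library differed from the other P0 WT libraries in some of these genes, and kit, animal and experiment cannot be told apart there. The S phase list summed to 758 and 680 CPM in the members of P0 WT, 1176 and 1750 in P0 Grhl3-/- and 1416 in the v1 WT library, which lies among the Grhl3-/- values. For single genes the v1 library was at 94.7 CPM for Tyms, above both Grhl3-/- libraries, at 42.8 for Dtl, between the groups, and at 77.5 for Cks2, with the other WT libraries. In dividing basal cells the S phase list summed to 1152 and 1095 CPM in P0 WT, 2161 and 2411 in P0 Grhl3-/- and 2904 in v1. Without P0 Grhl3-/- 2, 6 S phase and 6 G2/M genes were higher, and without P0 WT 2, 13 and 13.

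The granular and cornified envelope list had 15 of 24 genes lower and 0 higher (median -2.04). Lor was at 3.28 and 47.1 CPM in Grhl3-/- and 750 and 2070 in WT (-5.98 ± 1.21, adjusted p = 0.00335) and at 673 in v1. Hrnr was at 0 and 5.65 against 253 and 235 (-6.71 ± 0.81, adjusted p = 0.00011), but at 14.6 in v1. Cdsn, corneodesmosin, was at 0 in both Grhl3-/- libraries and 21.5 and 36.9 CPM in WT, at least 13.1-fold lower with the floor of 3 counts over the pair, and Lce1m was at 0 and 0 against 2.15 and 343.5, a difference that rests on P0 WT 2. DESeq2 called 6 of the list, and 8 were lower without P0 Grhl3-/- 1, where Lor was not called. Of 26 spinous genes 13 were lower and 0 higher (median -0.69), led by Cnfn (9.83 and 28.2 against 153 and 135 CPM, -2.99 ± 0.58), Sbsn (287 and 243 against 1468 and 1402, -2.35 ± 0.23, adjusted p = 2.44e-05, 1299 in v1) and Elovl4 (91.7 and 71.6 against 440 and 407, -2.26 ± 0.23, 333 in v1). The Cnfn call was lost with DESeq2 (adjusted p = 0.110) and with 3 or more cycle transcripts required (edgeR adjusted p = 0.0691). Of 28 desmosome and junction genes 11 were lower and 1 higher (median -0.74), with Dsp, desmoplakin, at 694 and 348 against 1338 and 1203 CPM (-1.19 ± 0.23, adjusted p = 0.00238) and 397 in v1, and Evpl, envoplakin, lower too (-1.52 ± 0.26). With 3 or more cycle transcripts required, 6 spinous and 4 junction genes were lower.

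Other regulators changed one by one. Krt15 was at 5168 and 3253 CPM in P0 Grhl3-/- and 1621 and 1723 in WT (1.42 ± 0.26, adjusted p = 0.00177), and 3096 in v1. Of 19 basal genes 2 were higher, Krt15 and Sostdc1, and 4 lower, Dst, Plec, Trp63 and Egfr, with Dst at 175 and 121 CPM against 322 and 379 (-1.13 ± 0.19, adjusted p = 0.00108). With Krt1 plus Krt10 at 200 or more per 10000 the Dst change was -0.20 and not called (edgeR adjusted p = 0.575). Lef1, an effector of Wnt signalling, was at 38.2 and 37.7 against 12.9 and 7.97 (1.97 ± 0.32, adjusted p = 0.000781), and 24.8 in v1, and it was the 1 higher of 15 Wnt genes tested, where Myc was the 1 lower (-1.296 ± 0.33). Notch2 was at 9.83 and 3.77 CPM against 69.4 and 33.6 (-2.65 ± 0.61, adjusted p = 0.0074), and was at 3.86 in v1. Notch1 was higher (107 and 122 against 54.3 and 84.7, 0.79 ± 0.25, adjusted p = 0.0415), a call lost with DESeq2 (adjusted p = 0.0827), with RLE size factors, with 3 or more cycle transcripts required, with the 4 libraries fitted alone, and without any 1 of P0 WT 1, P0 Grhl3-/- 1 or P0 Grhl3-/- 2. Of 17 Notch genes 1 was higher and 2 were lower, near the share over all genes, as for the Wnt list. Krt16 was lower (90.6 and 28.2 against 1441 and 292, -3.68 ± 0.68), and of the 10 stress genes tested the 1 other call was S100a9, higher at 56.8 and 0 CPM and lost without the first Grhl3-/- library. The limit on Krt6a and Sprr2a3 had removed 18 and 21 cycling suprabasal cells from the P0 Grhl3-/- libraries and 0 from both P0 WT libraries, so these stress genes were compared after that removal and the values do not describe the removed cells. The polarity genes Pard3 and Pard6g and the dynein regulator Ndel1 were lower (-1.11, -0.98 and -1.22) and Gnai2, a G protein subunit at the cortex, was higher (0.79), 4 called of 21 spindle genes, near the share over all genes. Immediate early genes Jun and Fosb were higher (1.36 ± 0.21 and 1.304 ± 0.32), among 4 called of 20 in a list of dissociation stress, near the 17.4% over all genes.

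Melanocyte transcripts moved with the genotype at P0. The list summed to 908 and 568 CPM in WT members, 39.3 and 220 in Grhl3-/- and 126 in v1, and 3 of 4 genes tested were lower, Dct from 638 and 367 to 16.4 and 134 CPM (-2.85 ± 0.51). With doublet calls removed 1 of the 4 was lower, 19 S phase genes were higher and 13 granular genes lower.

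**Figure D4:**
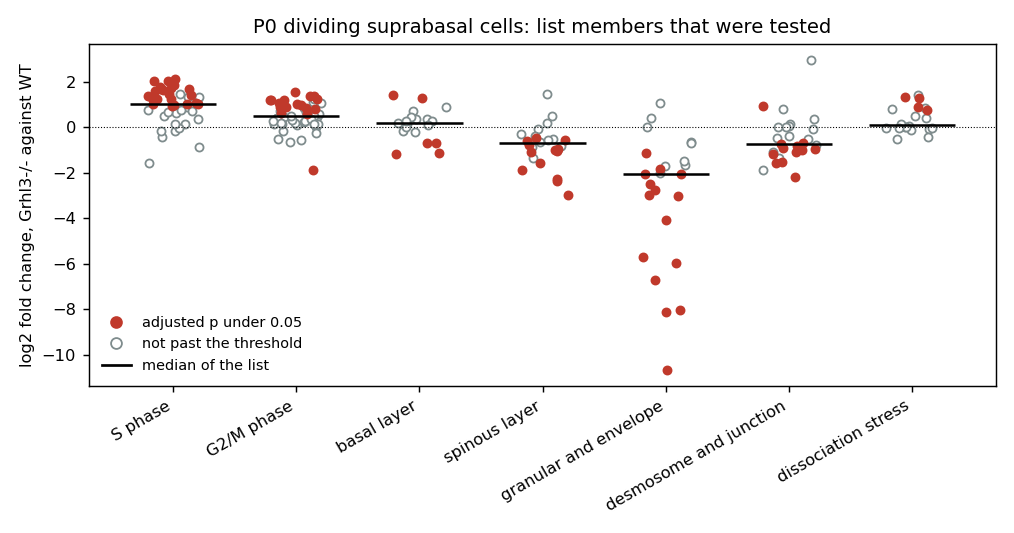
Log2 fold change of Grhl3-/- against WT in P0 members for each tested gene of 7 lists, filled where the edgeR adjusted p was under 0.05, with the list's median as a bar. S phase genes lie around a median of 1.05 and granular and envelope genes around -2.04, and the lowest point is Lce1m, at 0 in both Grhl3-/- libraries, whose fitted value depends on the prior count.

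Changes were then compared between members and the other classes by an interaction term, with the library as a block since the classes share it. The E16.5 against E14.5 change in WT did not differ between members and non-dividing suprabasal cells for any of 9482 genes (0 called, 0% of genes, by edgeR and by DESeq2, with 464 and 189 at an unadjusted p under 0.05), which does not show that the changes were alike. Removing the filter on low counts gave 19 calls and requiring 3 or more cycle transcripts 17. Against dividing basal cells 228 of 11251 genes changed more upward in members (2.03%) and 196 more downward (1.74%; 3.77% in all), 238 and 209 in all without E14.5 WT 1 and E14.5 WT 2. Of 52 G2/M genes 16 changed more downward and 0 upward (median difference -0.56, against 0.040 over all genes), and of 44 S phase genes 7 and 0 (median -0.68). The cycle genes called here fell in members relative to dividing basal cells. Members with 4 or more cycle transcripts went from 52.6% and 39.5% to 31.5% and 39.2%. Dividing basal cells with as many went from 53.2% and 53.3% to 58.7% and 57.7%. Doublet calls marked 2.63% of members in each E14.5 WT library and 17.8% and 14.4% in E16.5 WT. They marked 7.14% and 5.49% of dividing basal cells at E14.5 and 10.1% and 9.12% at E16.5. The part of these shares in the difference was not tested. Of 20 genes of dissociation stress 6 changed more downward and 0 upward (median -0.61), and of 17 dermal genes 5 more upward and 0 downward. Their part in the result was not tested.

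By size, Spink5, a protease inhibitor of the barrier, went from 0 in both to 122.5 and 71.1 CPM in members and from 2.79 and 3.71 to 8.01 and 3.29 in dividing basal cells (adjusted p = 6.76e-05). Wnt6 went from 1.397 and 1.42 to 19.4 and 26.6 CPM in members while basal cells went from 322 and 402 to 193 and 219 (difference of changes 4.89 ± 0.58, adjusted p = 2.22e-06), and Igfbp5 likewise (4.51 ± 0.43). Alcam, an adhesion molecule, went from 64.2 and 59.8 down to 30.8 and 13.3 in members and up from 33.4 and 31.9 to 95.7 and 90.7 in basal cells (-3.03 ± 0.34, adjusted p = 1.19e-06). Fam25c was higher at E16.5 in both classes, from 97.8 and 54.1 to 679 and 468 CPM in members and from 0 and 0.371 to 52.7 and 45.4 in basal cells (-4.49 ± 0.72).

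The P0 genotype change differed between members and non-dividing suprabasal cells for 6 of 9482 genes (0.0633%), 2 more upward (0.0211%) and 4 more downward (0.0422%). Lor, at the values given above in members, was at 7.32 and 429 CPM in non-dividing Grhl3-/- cells and 909 and 1105 in WT, a smaller difference than in members (difference of changes -3.42 ± 0.48, adjusted p = 0.00305), a call lost without P0 Grhl3-/- 2 and with 3 or more cycle transcripts required. Prc1, a protein of the central spindle, was at 65.5 and 86.6 against 67.2 and 80.1 CPM in members and 10.4 and 17.0 against 40.2 and 56.9 in non-dividing cells (1.85 ± 0.33, adjusted p = 0.0217). Dct also passed (-2.92 ± 0.40), and both calls were lost with DESeq2, which called 2 genes (adjusted p = 0.784 and 0.733). That of Prc1 was also lost without any 1 of P0 WT 1, P0 WT 2 or P0 Grhl3-/- 1 (largest edgeR adjusted p = 0.263). Also called were Ptgds, Pmel and Hbegf, named here after their values were seen. Neither the S phase nor the G2/M list held a call, with median differences of 0.44 and 0.59. The count rested on the Grhl3-/- libraries, with 209 genes without the first and 47 without the second, and 59 with no filter on low counts.

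Against dividing basal cells, 134 of 11251 genes changed more upward (1.19%) and 247 more downward (2.2%) in P0 members (3.39% in all), 164 and 176 in all without P0 WT 1 and P0 Grhl3-/- 1. Of 44 S phase genes 0 changed more upward and 1, E2f8, more downward (median -0.089), and of 52 G2/M genes 1, Ttk, more downward, near the share over all genes, which does not show that the genotype changes were alike in members and dividing basal cells. Lor and Spink5 were lower in Grhl3-/- members while both were at 18.5 CPM or less in basal cells of the 4 libraries (-5.39 ± 0.86 and -3.38 ± 0.63). Krt77, Ccl27a and Igfbp4 passed upward, with a high level in the first Grhl3-/- library alone. Elovl4 was at 2.58 and 2.32 CPM in Grhl3-/- basal cells and 52.0 and 26.6 in WT, a larger difference than in members (1.67 ± 0.40, adjusted p = 0.0144), a call lost with DESeq2 (adjusted p = 0.148) and without P0 WT 1 or P0 Grhl3-/- 1 (1.19 and 1.47). Of 19 basal genes 6 changed more upward in members and 0 more downward (Krt15, Col17a1, Itga6, Dst, Cd44 and Col7a1). Dst was lower in Grhl3-/- members, so a more upward change need not be a rise. Of 28 spinous genes 6 changed more upward and 6 more downward. Of 8 melanocyte genes 4 changed more downward and 0 upward, and of 17 dermal genes 2 more upward and 0 downward, whose part in the result was not tested.

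The balance of S phase to G2/M transcripts within members was read as the log2 ratio of their summed UMIs, with the rule's genes left out. It was -1.82 and -1.66 in E14.5 WT and -1.47 and -1.83 in E14.5 Grhl3-/-, -1.95 and -2.16 in E16.5 WT and -1.76 and -1.66 in E16.5 Grhl3-/-, and -1.82 and -1.91 in P0 WT and -1.64 and -1.33 in P0 Grhl3-/-. The groups overlapped at E14.5 and did not at E16.5 and P0. The mean difference over the 3 ages was 0.27 on the log2 scale (exact permutation test within age, two-sided, n = 12 libraries, p = 0.0278, smallest possible 0.00926). The v1 WT library, outside this test, was at -1.17, above every Grhl3-/- value. The call did not hold without any 1 of E14.5 WT 1, E14.5 Grhl3-/- 1, E16.5 Grhl3-/- 2, P0 WT 1 or P0 WT 2 (differences of 0.24, 0.21, 0.26, 0.29 and 0.26, exact permutation p = 0.0741, 0.0741, 0.0648, 0.0648 and 0.0648), with 3 or more cycle transcripts required, or with the mean of log2 CPM in place of summed UMIs. In non-dividing suprabasal cells the ratio was -1.88 and -1.48 in E14.5 WT and -1.07 and -1.21 in E14.5 Grhl3-/-, -1.56 and -1.66 in E16.5 WT and -1.05 and -0.91 in E16.5 Grhl3-/-, and -1.56 and -1.66 in P0 WT and -1.22 and -1.65 in P0 Grhl3-/-, so in that class the Grhl3-/- libraries stood higher before birth and the groups overlapped at P0. In dividing basal cells the ratio ran from -1.31 to -0.78 before birth, above the members of the same library in 8 of 8, and from -2.25 to -1.85 in the 4 P0 libraries of the fit, below the members in 4 of 4.

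**Figure D5:**
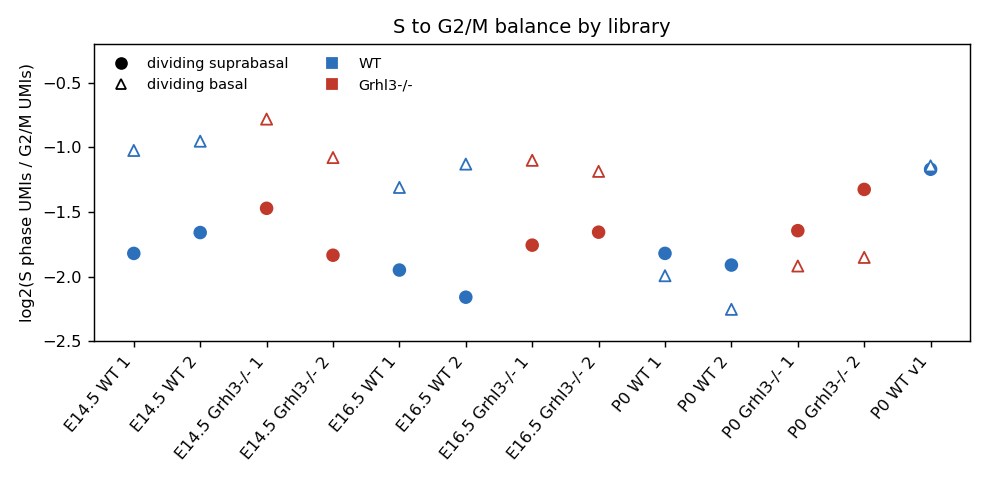
Log2 ratio of summed S phase UMIs to summed G2/M UMIs in each library for members (circles) and dividing basal cells (triangles), WT in blue and Grhl3-/- in red. Members lie below dividing basal cells in the 8 embryonic libraries and above them in the 4 P0 libraries of the fit, and the v1 library stands at -1.17 and -1.14.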

How the data were processed

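The authors made the libraries with a droplet 3′ kit, version 2 for 12 libraries and v1 for 1, and counted UMIs with Cell Ranger (1.3.1 in the submitters' processing notes) on mm10. The deposited values are raw UMI counts for 27998 genes and 97363 barcodes, with 49245953 to 107038146 UMIs a library. Libraries were grouped by their labels, and replicate libraries are taken as separate skins, so p-values measure the spread between libraries. The paper describes the WT and Grhl3-/- animals of each age as littermates. Age thus cannot be told apart from litter, and p-values between ages do not measure the spread between litters. The members and gene lists were chosen with earlier results of these data known.

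Members' counts were summed per library and tested with edgeR 4.0.16 in R 4.3.3 (TMM scaling, filterByExpr, quasi-likelihood test, 1 fit over 12 libraries with a term for each age and genotype), adjusted by Benjamini-Hochberg over all genes tested, with the 12 genes of the rule left out of the tests. The summed counts of each class gave the interactions in the same way. Levels are CPM, log2 differences between classes used a prior count of 2, the plot of WT genes by age a pseudocount of 1, and a pair at 0 was set at 3 counts in all. Shares were read after thinning to 3000 UMIs and compared by exact permutation of log odds. Doublets were called with Scrublet in scanpy 1.11.5 and kept, removal being an alternative. DESeq2 1.42.0, another scaling, no filter, other limits on cells, fits of the 4 compared libraries, leaving out each library and a block for the replicate number were the other alternatives, with removal of cells over the collagen limit added after the data were seen. Named genes were the 5 of largest change in each direction past the threshold with no overlap between groups (mean log2 CPM of 5 or more), up to 4 called members of each list by size, the Grhl family and, as a description, the 10 of largest median difference between classes (6 or more), and any others named were chosen after their values were seen. On simulated counts for the P0 comparison (7680 genes) 71% of 2-fold and 100% of 4-fold changes were called, with 8 false calls, and for the P0 genotype difference against non-dividing cells (8120 genes) 30% and 94%, with 4. Changes were set only in genes with a mean log2 CPM of 5 or more, and the spread followed the trend with level. Both classes were drawn from the members' mean levels with no shared library effect, so these rates do not cover lower genes or a gene's own spread. In dividing suprabasal cells of 12 to 146 a library, low transcripts carry few counts. Promoters were read from RefSeq's GRCm38.p6 table. Some results on single genes are not reported here.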

Additional observations from a re-analysis of the deposited data

Results flagged for a closer look

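Some changes differed between members and another class by a test of the difference itself. The change from E14.5 to E16.5 in WT differed between members and dividing basal cells for 424 of 11251 genes, 228 more upward and 196 more downward in members. At P0 the difference between Grhl3-/- and WT was unlike that of non-dividing suprabasal cells for 6 of 9482 genes, Lor, Dct, Ptgds and Pmel more downward and Prc1 and Hbegf more upward, and unlike that of dividing basal cells for 381 of 11251 genes, 134 more upward and 247 more downward. Dct and Pmel belong to the melanocyte list, and their part in the other differences was not tested.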

How the results depend on the processing

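The lower share at E16.5 than at E14.5 (log odds) was past the threshold with thinning to 2000 UMIs (-0.48) and of all keratinocytes (-1.84). It was not without thinning (-0.50), of all kept cells (-0.52), with 3 or more markers (-0.37), without the Krt6a limit (-0.45), without doublet calls (-0.48), without collagen-high cells (-0.48) or by edgeR on cells per class (-0.77), and it turned to 0.51 with Krt1 plus Krt10 at 200 or more. Leaving out 1 library gave -0.55 to -0.29. The P0 against E16.5 share passed with 2000 UMIs (-0.59), unthinned (-0.38) and without doublet calls (-1.43), was above 0 of all kept cells (0.11, p = 0.8 by exact permutation) and by edgeR on cells per class (0.18, p = 0.76), and ran from -0.94 to -0.39 with 1 library left out. The genotype difference in share passed under none of these. It was 0.23 in the main setting. It was below 0 unthinned (-0.023), of all kept cells (-0.38), of all keratinocytes (-0.35) and by edgeR on cells per class (-0.52). The S to G2/M balance was 0.25 with 3 or more markers and 0.17 by mean log2 CPM, neither past the threshold, and 0.21 to 0.33 with 1 library left out. The causes were not tested.

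Counts of genes called moved by over 1.5 times as follows. Without the low-count filter there were 290 for genotype at E14.5, 276 at E16.5, 19 for the age difference against non-dividing cells and 59 for the genotype difference against them. With 3 or more markers there were 21 at E16.5 and 715 at P0 for genotype, and 17, 26 and 225 for the differences of age and genotype against non-dividing cells and of genotype against basal cells. DESeq2 gave 743 for genotype at P0, 451 and 2075 for the ages, and 249, 2 and 136 for the differences (age against basal cells, genotype against non-dividing and against basal cells). Without doublet calls there were 61 at E14.5 and 22 at E16.5, with Krt1 plus Krt10 at 200 or more 20 at E16.5, and with the 4 libraries alone 284 at E14.5 and 886 at P0. That keratin limit could not be run for the E14.5 comparisons, where too few cells were left. Leaving out 1 library gave 19 to 51, 11 to 48 and 744 to 984 for genotype, 268 to 397 and 1970 to 2971 for age, 0 to 1 and 209 to 314 for the age differences (non-dividing, basal), and 5 to 209 and 164 to 333 for the genotype differences.

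Of values for named genes under alternatives other than leaving out a library, 1938 kept direction and side of the threshold, 193 lost the call and 4 turned: with 3 or more markers Ivl (1.68) and Krt77 (1.38) between E16.5 and P0 in WT, Krt73 for genotype at P0 (-1.04) and Crct1 in the difference against basal cells (0.69). With 1 library left out 727 kept, 288 lost it and 1 turned, S100a9 at P0 (-3.62 without Grhl3-/- 1, up to 5.54 without Grhl3-/- 2). Libraries with the same replicate number did not deviate together (correlations over 3918 genes of -0.0069, 0.12 and -0.015), so the numbers do not pair samples. With the replicate number as a block the counts were 89, 73 and 1258 for genotype and 768 and 3486 for age. With it no named call was turned, and 4, 2 and 2 named calls were lost: Abca12, Tgm1, Cldn3 and Calm5 for genotype at E14.5 (edgeR adjusted p = 0.108, 0.0527, 0.0605 and 0.0719), Exo1 and Tchh for genotype at P0, and Dsc2 and Grhl1 for P0 against E16.5.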
